A study of Chlamydomonas reinhardtii with 42 samples.

Results

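The transcripts of 2 strains of Chlamydomonas reinhardtii, a unicellular green alga with a single large chloroplast and a pair of flagella, were compared at 12 h after vitamin B12 and thiamine had been added to the medium. The comparison took 6 libraries of RNA of the 42 records of the series, 3 of the strain DHC16 and 3 of the strain A31, each numbered 10, 13 and 16. Its members were the 14422 genes of the 17114 in the table of normalized counts whose average over the 17 libraries of that table was 1 CPM or more (CPM: the count after each library is rescaled to the same total). Both strains had received both vitamins and were kept at 25 °C in Tris-acetate medium, in light, in dim light or in darkness, and the labels do not say which of these conditions a given library had. The vitamins served to deplete ClpP1, the chloroplast-encoded catalytic subunit of the Clp protease, and the labels spell the strain both DHC16 and DCH16. They do not state which strain is depleted; in the published description of this system as generally known, DCH16 carries the vitamin-repressible clpP1 and A31 is its control. At 12 h no culture without vitamins was part of the table, so a level difference between the strains holds both the depletion and any other difference between 2 genetic backgrounds. The same strains at 0 h, also 3 libraries each, numbered 1, 4 and 7, gave the difference before depletion.

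The Clp protease is a barrel of ClpP and ClpR subunits in the chloroplast stroma, fed by Hsp100 chaperones that unfold its substrates. In Chlamydomonas the clpP1 gene is essential, and loss of the protease is known to be followed by a chloroplast unfolded protein response, in which nuclear genes for plastid chaperones and proteases are induced. Vitamin B12 also represses METE, the nuclear gene of the B12-independent methionine synthase, whose regulatory region is used to make chloroplast gene expression repressible by the vitamin.

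At 12 h 1601 of the 14422 tested genes differed between the strains (11.1%), 918 of them higher in DHC16 (6.37%) and 683 lower (4.74%), by limma on log2(normalized count + 1) with Benjamini-Hochberg adjusted p under 0.05. A log2 difference past 1 was reached by 262 of the higher and 289 of the lower genes, and the median difference of all tested genes was -0.0334. Differences below are DHC16 minus A31 on this log2 scale with their standard error, each from 3 libraries a strain, and levels are normalized counts per library. Whether the 3 libraries of a group are separate cultures is not said, and the p-values reflect library-to-library spread only, part of which may be technical. Leaving out 1 library moved the count of 1601 to 737 without A31 library 10, 1053 without A31 library 16, 1040 without DHC16 library 10, 785 without DHC16 library 13, 736 without DHC16 library 16 and 1704 without A31 library 13. When all 17 libraries shared 1 spread, including the A31 libraries of 48 h that lay far from each other, 498 genes differed, and 28 of the 73 named genes called here kept their call: PTB2, PTB4, HSP22E, HSP22F, SULTR2, SLT3, AOT4, NDA2, RPL37a, RPL38, RPS25, PHC24, AOC5, STPK23, GLN3, RAD54A, GTR12, RBOL2, ODA9, PRPS17, PRPL29, PRPL34, VPS46, COX19, Cre48.g789400, Cre07.g321800, Cre39.g786050 and Cre29.g778950. The 73 leave out genes chosen after their values were seen.

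The 6 libraries held 7793322 to 10315342 reads. Their deposited totals were 6706291 to 7513092 in A31 and 8547399 to 8630389 in DHC16, and the 10 most abundant genes took 5.71 to 6.12% of the total in A31 and 8.59 to 8.92% in DHC16. The totals therefore move with the strain, and their part in the differences was not tested. Rescaling each library to the same total (CPM) shifted the median of all genes by -0.292 and turned the split of calls from 918 higher and 683 lower to 322 higher and 2119 lower (13.2% of calls higher in place of 57.3%), while in edgeR on recovered reads 46% of 2353 calls were higher. Under the CPM scale 16 of the 73 named calls were lost, those of FAP211, FAP43, METE, RSP3, IFT81, VSP6, PSBX, ELI2-1, POR, PRPL15, PRPL32, PSRP-1, DNJ5, GSTS1, NTR2 and COX19. The first principal component, with 56.1% of the variance, parted the strains. Spearman correlations were 0.967 to 0.978 within A31, 0.984 to 0.987 within DHC16 and 0.933 to 0.969 between the strains, with A31 library 13 the nearest of A31 to DHC16.

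Gene symbols came only from the authors' rapamycin tables, so each gene with a symbol had passed the authors' selection there. Of the 766 tested genes with a symbol, 143 were higher and 51 were lower in DHC16, larger shares than the 6.37% and 4.74% of all tested genes. Of the 143, 59 were flagella associated proteins and 31 were genes of axonemal dyneins, radial spokes and intraflagellar transport. The lists below hold such genes only, and their members are not a sample of their pathways. Over all tested genes edgeR on recovered reads called 1082 higher and 1271 lower, and DESeq2 called 1151 and 1268. The counts of listed genes at an unadjusted p have no count of all genes beside them here. The plot of 21 gene lists shows all their members.

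**Figure D1:**
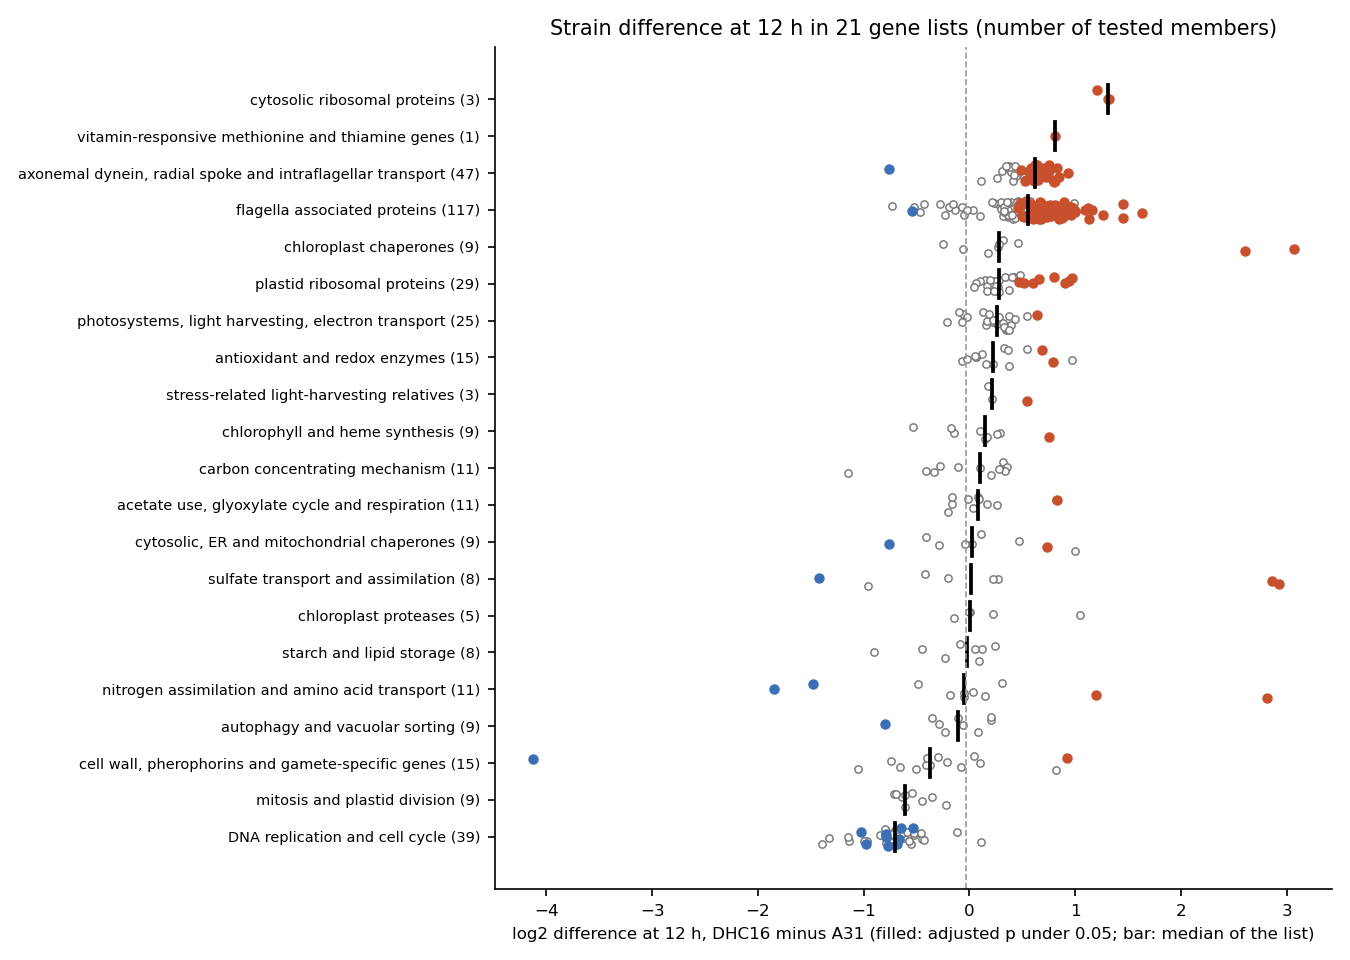
The log2 difference between the strains at 12 h (DHC16 minus A31) is plotted for every tested member of 21 gene lists, filled where the limma adjusted p was under 0.05, with a black bar at each list's median and a dashed line at the median of all tested genes (-0.0334). The 2 flagellar lists sit to the right, with medians of 0.558 and 0.617, and the DNA replication and cell cycle list to the left, with a median of -0.706, while HSP22E and HSP22F stand apart from the other chloroplast chaperones.

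METE, the vitamin B12-repressed methionine synthase (Cre03.g180750), was the single tested gene of the methionine and thiamine list. Its level at 0 h was 1049.7, 579 and 814 normalized counts in A31 and 935, 585 and 1004 in DHC16, and at 12 h it was 165, 140.2 and 146 in A31 and 263, 268 and 259 in DHC16. Both strains were lower at 12 h than at 0 h in every library, and at 12 h the strains did not overlap. The difference at 12 h was 0.81 ± 0.21 (adjusted p = 0.022), and that at 0 h was 0.05 ± 0.21 (adjusted p = 0.89). The call at 12 h was lost without any of the libraries other than A31 library 10, with adjusted p up to 0.077.

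HSP22E and HSP22F, the small heat shock proteins of the chloroplast, were the members of the chaperone list that were higher in DHC16, 2 of 9. Of the 766 genes with a symbol 143 were higher. HSP22E (Cre14.g617450) stood at 58.7, 67.0 and 80.0 normalized counts in the A31 libraries and 371, 519 and 381 in the DHC16 libraries. The groups did not overlap, and DHC16 library 13 was the highest. The difference was 2.60 ± 0.21 (adjusted p = 3.4e-06) at 12 h and 1.10 ± 0.21 (adjusted p = 0.0024) at 0 h, and the 12 h difference exceeded that at 0 h by 1.50 ± 0.29 (adjusted p = 0.015). HSP22F (Cre14.g617400) stood at 31.0, 53.0 and 32.8 in A31 and 238, 529.9 and 270.2 in DHC16. Again no A31 library reached a DHC16 library, and library 13 was highest in both strains. Its difference was 3.07 ± 0.30 (adjusted p = 2.7e-05) at 12 h against 1.52 ± 0.30 (adjusted p = 0.0035) at 0 h, and the excess of the former over the latter was 1.55 ± 0.43 (adjusted p = 0.06), which missed the threshold. These 2 close paralogs are neighbours in the numbering of genes, and reads shared by them could have been split in counting. By 48 h the level of HSP22E was 21443, 31721 and 25327 in the 3 DHC16 libraries and 128 and 198 in the 2 A31 libraries, so the levels at 12 h lay far below those of the later time in DHC16.

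The other chloroplast chaperones did not pass the test at 12 h. HSP70B, the Hsp70 of the stroma, stood at 2627, 2245 and 2549 in A31 and 2283, 2037 and 1935 in DHC16, a difference of -0.25 ± 0.24 (adjusted p = 0.54). CLPB3, the Hsp100 disaggregase, gave 0.27 ± 0.17 (adjusted p = 0.31), and VIPP1, a protein that shapes and protects thylakoid membranes, gave 0.28 ± 0.27 (adjusted p = 0.54). For all 3 the libraries of the strains overlapped. At 48 h HSP70B stood at 8549.9, 10280.0 and 8738 in DHC16 and at 496 and 4104 in A31. Of 5 chloroplast proteases, 0 were called by limma, edgeR or DESeq2. At an unadjusted p under 0.05, with no count of all genes at that cut beside it, 1 was higher. This was DEG1C, a DegP-type protease, with 153, 129 and 151 in A31 and 222, 514 and 231 in DHC16 and a difference of 1.04 ± 0.44 (adjusted p = 0.14). The highest of its values was that of DHC16 library 13. FTSH1 and FTSH2, the membrane proteases that take part in photosystem II repair, gave -0.01 ± 0.14 and 0.22 ± 0.12. Of 9 cytosolic, ER and mitochondrial chaperones, DNJ5 was higher and DNJ13 lower, both DnaJ-like proteins. Of the 766 genes with a symbol 143 were higher and 51 lower. DNJ13 lost its call without any 1 of the 6 libraries (limma adjusted p up to 0.14). DNJ5 lost its call without any library but DHC16 library 10 (up to 0.16).

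**Figure D2:**
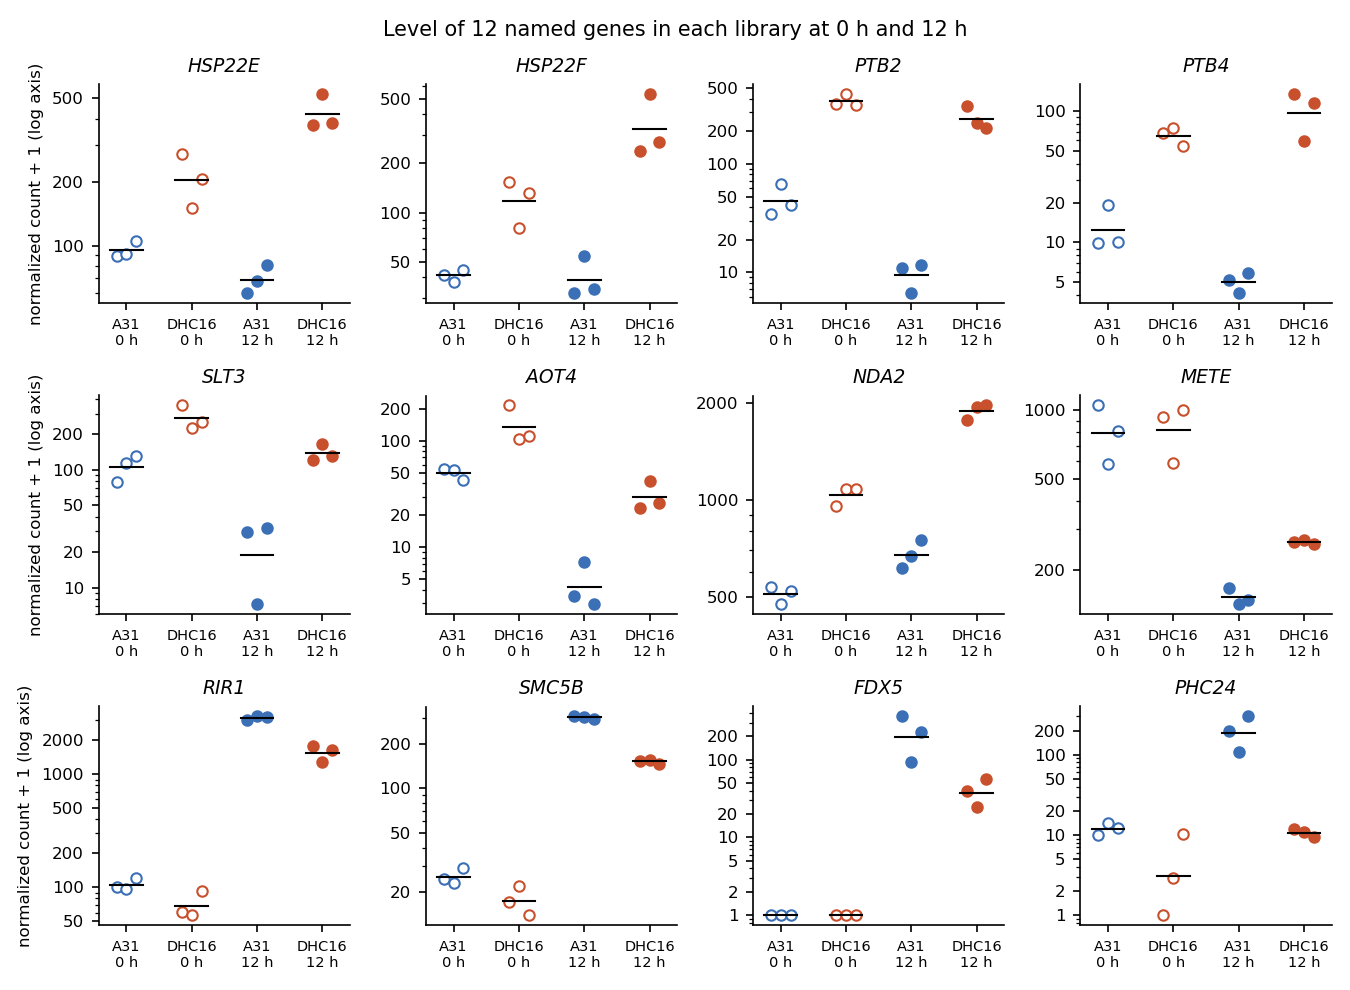
Normalized count plus 1 on a log axis in each library of A31 (blue) and DHC16 (red) at 0 h (open) and 12 h (filled), with a line at the mean of the log values, for 12 genes named in the text. HSP22E, HSP22F, PTB2, PTB4, SLT3, AOT4, NDA2 and METE are higher in every DHC16 library at 12 h, and RIR1, SMC5B, FDX5 and PHC24 are lower in every one.

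Among all tested genes 6.37% were higher and 4.74% lower, and among the 766 with a symbol 143 were higher and 51 lower. Of 25 genes for photosystems, light harvesting, electron transport and the Calvin cycle, 1 was higher and 0 were lower by limma and edgeR, 3 were higher by DESeq2, and the median difference was 0.257. Under CPM scaling the median was -0.0388, or 0.286 relative to the median of all genes. At an unadjusted p under 0.05, 4 were higher and 0 lower, with no count of all genes at that cut beside them. PSBX, a small subunit of photosystem II, was the gene called, with 6721, 7494 and 7018 in A31 and 10685, 11336 and 11087 in DHC16 and a difference of 0.64 ± 0.18 (adjusted p = 0.036). It lost its call without any 1 of the 6 libraries, with adjusted p up to 0.12. POR, the light-dependent protochlorophyllide reductase of chlorophyll synthesis, was called among 9 genes of chlorophyll and heme synthesis. Its level was 1952, 1999 and 2154 in A31 and 3202, 3516 and 3572 in DHC16. No library of one strain reached the other, the difference was 0.75 ± 0.14 (adjusted p = 0.0031), and at 0 h it was -0.08 ± 0.14 (adjusted p = 0.73). ELI2-1, an early light-inducible relative of the light-harvesting proteins, differed by 0.55 ± 0.13 (adjusted p = 0.017), a call lost without A31 library 10 or DHC16 library 13 (adjusted p up to 0.084).

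Plastid ribosomal proteins build the translation machinery of the chloroplast. In DHC16 8 of 29 were higher and 0 lower, beside 143 and 51 of the 766 genes with a symbol, and the median was 0.279. Under CPM scaling it was -0.0171, or 0.308 relative to the median of all genes, and 3 of 29 were called. At an unadjusted p under 0.05, 13 were higher and 0 lower, with no count of all genes at that cut beside them. The calls of edgeR were 8 and those of DESeq2 9. PRPS17, of the small subunit, stood at 2836, 3048 and 3202 in A31 and 5649.9, 6523 and 5376 in DHC16, a difference of 0.95 ± 0.14 (adjusted p = 0.00076) without overlap. PRPL29 and PRPL34, of the large subunit, differed by 0.97 ± 0.19 (adjusted p = 0.004) and 0.90 ± 0.18 (adjusted p = 0.0048). At 0 h 18 of the 29 were higher, beside 9.4% of all genes higher and 8.76% lower at that time, and the median was 0.57. The count of 8 fell to 4 without A31 library 10, A31 library 16 or DHC16 library 10, to 3 without DHC16 library 13 and to 5 without DHC16 library 16. With all 17 libraries sharing the spread it was 3. PRPL15 lost its call without DHC16 library 10 or 13, and PRPL32 without A31 library 10 or 16 or DHC16 library 10 or 13. PSRP-1, a plastid-specific ribosomal protein, lost its own without any library but DHC16 library 10.

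All 3 cytosolic ribosomal protein genes with a symbol were higher in DHC16, with a median of 1.31, and were still called under CPM scaling (1.01) and quantile scaling (0.614). RPL37a stood at 20535, 19592 and 27562 normalized counts in A31 and 52283, 55486 and 59260.0 in DHC16, and it differed by 1.32 ± 0.26 (adjusted p = 0.0045) at 12 h and 1.70 ± 0.26 (adjusted p = 0.00058) at 0 h. The difference of RPS25 was 1.31 ± 0.24 (adjusted p = 0.0034) and that of RPL38 was 1.21 ± 0.28 (adjusted p = 0.011), the latter lost without A31 library 10 or DHC16 library 16 (adjusted p up to 0.062). These 3 genes together took 0.899 to 1.19% of the deposited total in A31 and 1.87 to 2.08% in DHC16.

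Flagellar genes held the most calls higher in DHC16 of the 21 lists, and their 2 lists were also the largest. Higher in DHC16 were 6.37% of all tested genes and 143 of the 766 with a symbol. Of 117 flagella associated proteins (FAP genes, found in the proteome of the isolated flagellum), 59 were higher and 1 was lower, with a median of 0.558 and a range of -0.73 to 1.63, and 104 had a positive difference. Of 47 genes for axonemal dyneins, radial spokes and intraflagellar transport, 31 were higher and 1 was lower, with a median of 0.617, and 46 were positive. Under CPM scaling these medians were 0.265 and 0.322, or 0.59 and 0.647 relative to the median of all genes, and 17 FAP genes were higher and 4 lower and 6 and 1 genes of the second list were called.

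FAP292 (Cre03.g162850) stood at 376, 438 and 393 normalized counts in A31 and 880.3, 798 and 746 in DHC16. Its groups did not overlap, and the difference was 1.00 ± 0.14 (adjusted p = 0.00034). FAP20, a protein of the inner junction of the doublet microtubule, stood at 1718, 2318 and 2132 in A31 and 3979.5, 3707 and 4127 in DHC16 and differed by 0.95 ± 0.15 (adjusted p = 0.0012). FAP232, FAP156 and FAP166 differed by 0.89 ± 0.14, 0.99 ± 0.15 and 0.85 ± 0.14, without overlap. The widest of the FAP differences were those of FAP215 (1.63 ± 0.35), FAP139 (1.46 ± 0.25) and FAP211 (1.45 ± 0.38), and FAP211 lost its call without A31 library 13 or any of the DHC16 libraries. RSP3, which anchors the radial spoke to the doublet, stood at 394, 471 and 421 in A31 and 751, 705 and 673 in DHC16, a difference of 0.73 ± 0.11 (adjusted p = 0.00071). RSP9, of the spoke head, and ODA9, an intermediate chain of the outer dynein arm, differed by 0.79 ± 0.13 (adjusted p = 0.0016) and 0.75 ± 0.13 (adjusted p = 0.0017). The IFT-B proteins IFT57, IFT20 and IFT81, parts of the train that carries cargo along the flagellum, differed by 0.81 ± 0.13, 0.94 ± 0.16 and 0.75 ± 0.13. A31 library 10 was the lowest of the 6 libraries for FAP292, FAP20, FAP232, FAP156, FAP166 and the 6 genes of spokes, dynein arm and transport named here.

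At 0 h the flagellar lists stood the other way or near level. There 5 FAP genes were higher and 34 were lower in DHC16 (median -0.357), and of the second list 4 were higher and 9 lower (median -0.0128). Of the 766 genes with a symbol 95 were higher and 130 lower at that time. Of all genes 2.2% had a more positive strain difference at 12 h than at 0 h, and 1.28% a more negative one. Of the 766 genes with a symbol 92 and 9 did. The difference was more positive for 56 of 117 FAP genes and more negative for 1, and for 17 and 0 of the 47 of the second list. FAP138 is an example, with 392, 458 and 661 in A31 and 206, 189 and 209 in DHC16 at 0 h and 58.7, 74.0 and 77.1 and 161, 136 and 120.5 at 12 h. It was lower in every DHC16 library at 0 h and higher in every one at 12 h, with differences of -1.28 ± 0.19 and 0.98 ± 0.19 and a change between them of 2.27 ± 0.27 (adjusted p = 0.00062). The lists' median relative level, in which each gene is set against its own mean over the 12 libraries of 0 h and 12 h, shows the libraries behind this. For the FAP genes it was 0.253, 0.204 and 0.47 in A31 and 0.044, -0.0106 and -0.178 in DHC16 at 0 h, and -0.611, -0.15 and -0.415 in A31 and 0.278, 0.12 and 0.186 in DHC16 at 12 h. A31 was thus lower at 12 h than at 0 h in every library, and DHC16 was higher in every one. At 48 h the A31 libraries gave -0.154 and -1.28 and the DHC16 libraries -0.827, -1.17 and -0.618, which overlap.

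The count of 59 FAP genes became 26 without A31 library 10, 28 without DHC16 library 10, 36 without DHC16 library 13, 29 without DHC16 library 16 and 73 without A31 library 13, and that of 31 became 14 without A31 library 10, 20 without DHC16 library 10 and 16 without DHC16 library 16. With all 17 libraries sharing the spread 2 and 1 were called. In RNA from whole cultures, fewer cells in a given state and less RNA per cell cannot be told apart.

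**Figure D3:**
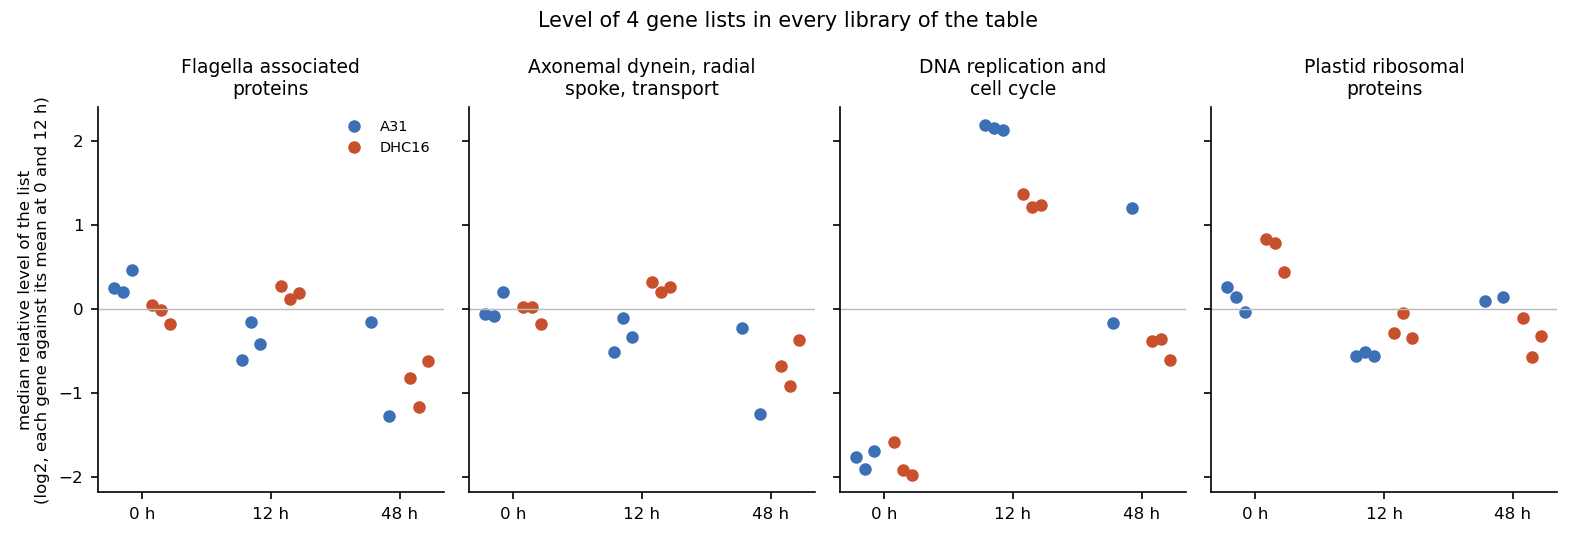
Median relative level of 4 gene lists (log2, each gene set against its own mean over the 12 libraries of 0 h and 12 h) in each of the 17 libraries, with A31 in blue and DHC16 in red. At 12 h the flagellar lists are higher and the replication list lower in all 3 DHC16 libraries. At 48 h the 2 A31 libraries lie apart in the flagellar and replication lists but close together in the plastid ribosomal list (0.0963 and 0.141).

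**Figure D4:**
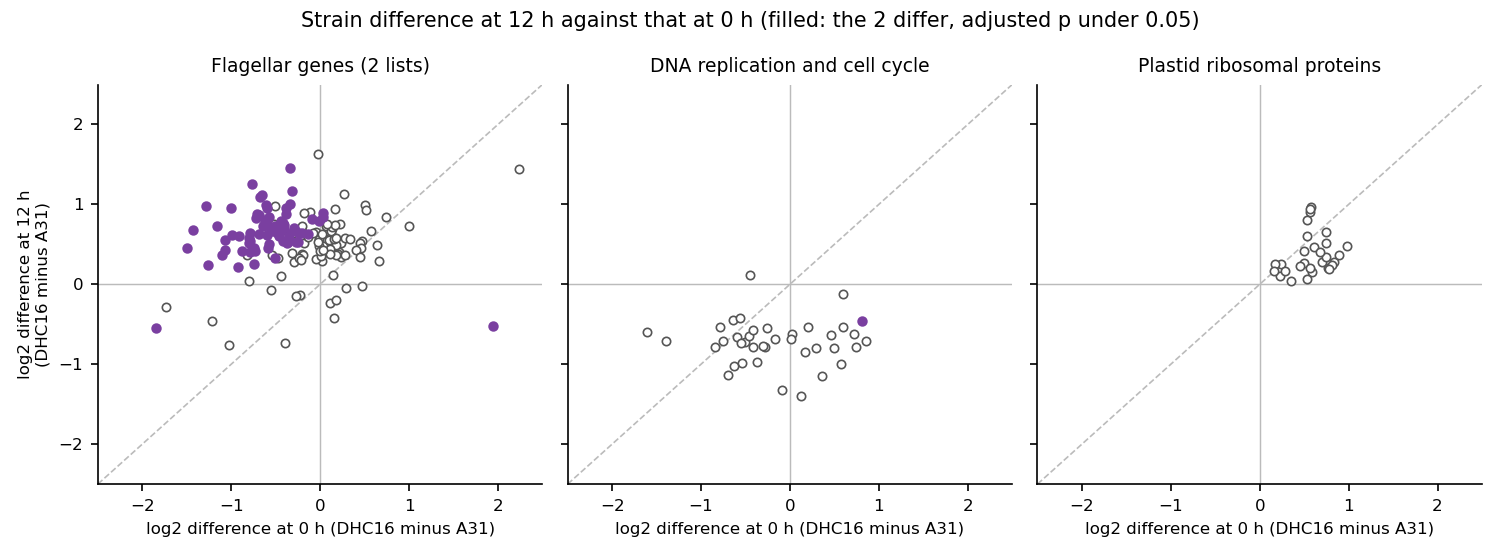
The strain difference at 12 h is plotted against that at 0 h (log2, DHC16 minus A31) for each tested gene of the flagellar, replication and plastid ribosomal lists, filled where the change between the times passed the limma test, with a dashed line of equality. Most flagellar genes lie above the line, 38 of 39 replication genes lie below 0 at 12 h with a wide range at 0 h, and plastid ribosomal genes are positive at both times.

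Among genes for DNA synthesis and cell division, every call was lower in DHC16. Of 39 such genes 9 were lower and 0 higher, 38 had a negative difference, and the median was -0.706 in the deposited scale and -0.999 under CPM scaling, or -0.674 relative to the median of all genes. At an unadjusted p under 0.05, 28 were lower and 0 higher, with no count of all genes at that cut beside them. Both edgeR and DESeq2 on recovered reads called 34 lower and 0 higher, beside 1271 and 1268 lower of the 14422 tested genes. By limma 683 of all tested genes were lower. RIR1, the large subunit of ribonucleotide reductase (Cre12.g492950), stood at 3008, 3252 and 3227 in A31 and 1779, 1292 and 1625 in DHC16. The groups did not overlap, and the difference was -1.03 ± 0.18 (adjusted p = 0.0021). SMC5B, of a chromosome maintenance complex, stood at 304, 299.9 and 294 in A31 and 153, 155 and 146 in DHC16 and differed by -0.98 ± 0.20 (adjusted p = 0.0053). CDC45 and MCM7, parts of the replicative helicase, differed by -0.79 ± 0.16 (adjusted p = 0.0055) and -0.66 ± 0.15 (adjusted p = 0.0093), and MCM5 and MCM4 by -0.53 ± 0.14 (adjusted p = 0.02) and -0.79 ± 0.23 (adjusted p = 0.039). POLD1, the catalytic subunit of DNA polymerase delta, and CYCB1, the B-type cyclin of mitosis, differed by -0.77 ± 0.20 (adjusted p = 0.023) and -0.68 ± 0.21 (adjusted p = 0.046). MAT3, the retinoblastoma homologue that couples cell size to division, stood at 837, 779 and 861 in A31 and 533, 478 and 573 in DHC16 and differed by -0.65 ± 0.14 (adjusted p = 0.0073). Values of A31 and DHC16 did not overlap for any of these genes. The same held for 36 of the 39 genes of the list and for 5172 of the 14422 tested genes.

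Levels of this list were far apart between the times in both strains. RIR1 stood at 101, 95.4 and 121 in A31 and 59.2, 56.0 and 92.7 in DHC16 at 0 h. The list's median relative level was -1.91 to -1.69 in A31 and -1.98 to -1.59 in DHC16 at 0 h, and 2.13 to 2.2 in A31 and 1.22 to 1.37 in DHC16 at 12 h. Both strains were thus higher at 12 h than at 0 h in every library. At 0 h 9 of the 39 were lower and 2 higher, with a median of -0.277, and the change between the times passed for 1 gene, SMC6A (-1.27 ± 0.22 (adjusted p = 0.0081)), of a chromosome maintenance complex. Of the 766 genes with a symbol 130 were lower and 95 higher at 0 h. The 9 genes of plastid and organelle division, among them FTSZ1, FTSZ2 and MIND1, all had a negative difference, and the median was -0.608. By limma 0 were called, while edgeR and DESeq2 each called 6 lower. At an unadjusted p under 0.05, 3 were lower, with no count of all genes at that cut beside them. The count of 9 replication genes became 5 without A31 library 10, A31 library 16 or DHC16 library 16 and 4 without DHC16 library 13. MCM4, POLD1 and CYCB1 lost their calls in each of these fits. MCM7 lost its call without A31 library 10 or DHC16 library 13, and MCM5 without A31 library 16 or DHC16 library 13 or 16. The count was 0 with all 17 libraries sharing the spread and 35 in a fit of the 6 libraries of 12 h alone. It was 20 with a pseudocount of 5 and 27 under CPM scaling.

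Transporters of phosphate, sulfate and amino acids were among the genes with the largest differences. PTB2, a sodium/phosphate symporter (Cre26.g773350), stood at 10.1, 5.45 and 10.6 normalized counts in A31 and 338, 239 and 213 in DHC16. DHC16 was higher in every library, by 4.78 ± 0.27 (adjusted p = 6.1e-08). It was also higher at 0 h, by 3.07 ± 0.27 (adjusted p = 1.1e-05), when its level was 33.6, 64.1 and 40.8 in A31 and 359, 436 and 349.9 in DHC16. PTB4, another sodium/phosphate symporter, stood at 4.19, 3.12 and 4.82 in A31 and 133, 58.0 and 115 in DHC16 and differed by 4.28 ± 0.35 (adjusted p = 4e-06). Its A31 values rest on few reads, and its difference ran from 3.49 to 5.23 over the alternative fits. For both symporters the strain difference was wider at 12 h than at 0 h, by 1.72 ± 0.39 (adjusted p = 0.025) and 1.90 ± 0.49 (adjusted p = 0.048). In A31 both were lower in every library of 12 h than in any of 0 h. In DHC16 PTB2 was also lower in every library of 12 h. PTB4 in DHC16 stood at 67.4, 73.3 and 53.5 at 0 h, so its levels at the 2 times overlapped.

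Of 8 genes of sulfate transport and assimilation, 2 were higher and 1 lower, beside 143 and 51 of the 766 genes with a symbol. SLT3, a sodium/sulfate co-transporter, stood at 28.5, 6.23 and 30.8 in A31 and 119.7, 165 and 129 in DHC16, with A31 library 13 far below the other libraries, and differed by 2.86 ± 0.42 (adjusted p = 0.00055). SULTR2, a sulfate transporter of the plasma membrane, stood at 0.838, 15.6 and 2.89 in A31 and 20.6, 63.9 and 36.0 in DHC16. Its difference was 2.92 ± 0.78 (adjusted p = 0.026), which was lost without A31 library 10 or 16 or DHC16 library 13 or 16 (adjusted p up to 0.12) and in DESeq2, and at 48 h its level in DHC16 was 2666, 3236 and 3281 and in A31 3.92 and 12.7. ARS5, an arylsulfatase-like protein, was lower, with 536, 635 and 566 in A31 and 276, 189 and 189 in DHC16 and a difference of -1.43 ± 0.32 (adjusted p = 0.0097), lost without DHC16 library 13 or 16 (adjusted p up to 0.051). ATS1, the ATP sulfurylase that activates sulfate, gave 0.22 ± 0.15 (adjusted p = 0.38).

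Of 11 genes of nitrogen assimilation and amino acid transport, 2 were higher and 2 lower, beside 143 and 51 of the 766 genes with a symbol. AOT4, an amino acid transporter, stood at 2.51, 6.23 and 1.93 in A31 and 22.6, 41.3 and 25.1 in DHC16 and differed by 2.82 ± 0.37 (adjusted p = 0.00025) at 12 h and 1.43 ± 0.37 (adjusted p = 0.016) at 0 h. At 12 h its values in A31 libraries 10 and 16 lay at or under 3 reads, and its difference ran from 2.01 to 3.59 over the alternative fits. HCP3, a hybrid-cluster protein, stood at 213, 409.7 and 395 in A31 and 736, 743 and 761 in DHC16 and differed by 1.20 ± 0.20 (adjusted p = 0.0017). Both were higher in every DHC16 library. GLN3, a glutamine synthetase, differed by -1.85 ± 0.42 (adjusted p = 0.011) and lost its call without A31 library 16 or DHC16 library 13 (adjusted p up to 0.058). THB1, a truncated hemoglobin, stood at 274, 135 and 306 in A31 and 70.7, 79.6 and 90.4 in DHC16 and differed by -1.48 ± 0.40 (adjusted p = 0.028), a call that remained only without A31 library 13 among the fits that left out a library. AOC5, a cationic amino acid transporter outside that list, stood at 16.8, 33.5 and 28.9 in A31 and 0.981, 0 and 0.837 in DHC16. DHC16 held 0 or 1 read per library, so the fitted difference of -4.10 ± 0.60 depends on the pseudocount.

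Among oxidoreductases, NDA2, the plastid type II NAD(P)H dehydrogenase that feeds electrons to plastoquinone, stood at 616, 667 and 749 in A31 and 1775, 1947 and 1968 in DHC16. No library overlapped, the difference was 1.49 ± 0.12 (adjusted p = 2.5e-06), and at 0 h it was 1.02 ± 0.12 (adjusted p = 6.9e-05). FDX5, a ferredoxin known to be induced without oxygen, was listed at 0 in all 6 libraries of 0 h and stood at 360.4, 91.9 and 225 in A31 and 38.3, 23.6 and 55.2 in DHC16 at 12 h. It differed by -2.37 ± 0.47 (adjusted p = 0.0051), and at 48 h its values in A31 were 0 and 4039. RBOL2, a respiratory burst oxidase, and PDC3, an E1 component of the mitochondrial pyruvate dehydrogenase complex, were lower by DHC16 minus A31 differences of -1.32 ± 0.23 (adjusted p = 0.0019) and -1.37 ± 0.19 (adjusted p = 0.00039). The glyoxal or galactose oxidases GOX1 and GOX8 differed by -1.45 ± 0.33 (adjusted p = 0.012) and -1.61 ± 0.46 (adjusted p = 0.036). GOX1 lost its call without A31 library 10 or 16 or DHC16 library 16 (adjusted p up to 0.07), and GOX8 without any library but A31 library 13 (up to 0.15). Of 15 antioxidant and redox enzymes 2 were higher, beside 143 of the 766 genes with a symbol. These were GSTS1, a glutathione S-transferase, and NTR2, a thioredoxin reductase, by 0.79 ± 0.20 (adjusted p = 0.018) and 0.69 ± 0.18 (adjusted p = 0.023). Both lost the call without A31 library 10 or DHC16 library 13 or 16 (up to 0.095 and 0.11).

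PHC24, a pherophorin of the cell wall family, had the largest negative difference of the genes with a symbol. It stood at 195, 108 and 299 in A31 and 10.8, 9.83 and 8.37 in DHC16, a difference of -4.13 ± 0.61 (adjusted p = 0.00057). The 15 cell wall and gamete genes otherwise held 1 higher gene, VSP6, with 437, 1154 and 821 in A31 and 1331, 1426 and 1491 in DHC16 and a difference of 0.92 ± 0.25 (adjusted p = 0.03), which was lost without any library but A31 library 13. The protein kinase STPK23, at 20.1, 13.2 and 28.0 in A31 and 0, 1.97 and 1.67 in DHC16, and the glycosyl transferase GTR12, at 89.7, 48.3 and 52.1 and 27.5, 18.7 and 25.9, were lower too. STPK16 and GTR8 were also called lower, and both lost the call without any 1 of the 6 libraries (adjusted p up to 0.13). HTR24, a histone H3, and RDP3, a rhodanese domain phosphatase, were higher by 1.34 ± 0.29 and 1.47 ± 0.32, RDP3 losing its call without DHC16 library 16 (0.053). Of 11 genes of acetate use, the glyoxylate cycle and respiration 1 was higher, beside 143 of the 766 genes with a symbol. This was COX19, an assembly factor of cytochrome c oxidase, by 0.83 ± 0.20 (adjusted p = 0.014), lost without DHC16 library 13 or 16 (up to 0.062). ICL1 and MAS1, the isocitrate lyase and malate synthase of the glyoxylate cycle, gave -0.17 ± 0.19 and 0.17 ± 0.14. Of 11 genes of the carbon concentrating mechanism 0 were called by limma and DESeq2 and 1 was lower by edgeR, with 0 higher and 2 lower at an unadjusted p under 0.05, and of 8 starch and lipid genes 0 were called by limma, edgeR and DESeq2, with 0 and 1. These unadjusted counts have no count of all genes beside them.

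Genes that lie side by side on 2 chromosomes differed together. These runs were found after the values were seen, by a running median of 21 neighbouring tested genes past 0.5 in size over at least 20 genes, in the gene order of the RefSeq assembly Chlamydomonas_reinhardtii_v5.5, in which 11203 of the 14422 genes were placed. They have no test. The files name no genome build, so no coordinates are given. On chromosome 3 the run held 190 tested genes, from Cre03.g183300 to Cre03.g194600. Of these 188 had a negative difference and 153 were called lower, with a median of -1.05 and quartiles of -1.29 and -0.832. The median was -1.02, -1.04 and -1.04 in DHC16 libraries 10, 13 and 16, each set against the mean of A31. It was -0.996 at 0 h, where 154 were lower, and -0.907 and -1.07 at 48 h against A31 libraries 19 and 22. The difference between the strains over the run was thus of similar size at the 3 times.

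On chromosome 15 a run of 61 genes, from Cre15.g640650 to Cre15.g642050, stood the other way. In it 58 had a positive difference and 42 were called higher, with a median of 0.963, or 0.956, 0.949 and 1.01 in the 3 DHC16 libraries. At 0 h the median was 1.01 and 42 were higher, and at 48 h it was 1.17 and 1.31 against the 2 A31 libraries. The change between 0 h and 12 h passed for 11 of the 251 genes in both runs. On the chromosomes with no run the medians lay between -0.0823 and -0.00392. The run on chromosome 3 held 22.4% of all genes called lower. Outside both runs 530 of 14171 genes were lower (3.74%) and 876 were higher (6.18%). Named genes inside it were RBOL2, RAD54A, a DNA repair protein, at 103, 111 and 80.0 in A31 and 38.3, 21.6 and 25.9 in DHC16, GTR8, VPS46, a subunit of the ESCRT-III complex that was the single lower gene of 9 in the autophagy and vacuolar sorting list (-0.79 ± 0.17 (adjusted p = 0.0068)), and ODA13 and FAP251, the single lower genes of the axonemal and FAP lists (-0.76 ± 0.14 (adjusted p = 0.003) and -0.54 ± 0.16 (adjusted p = 0.044)). RAN1, a Ran-like small GTPase, and SERRS2, a seryl-tRNA synthetase, also lie there and were lower. DNA was not measured, and the number of gene copies was not tested.

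**Figure D5:**
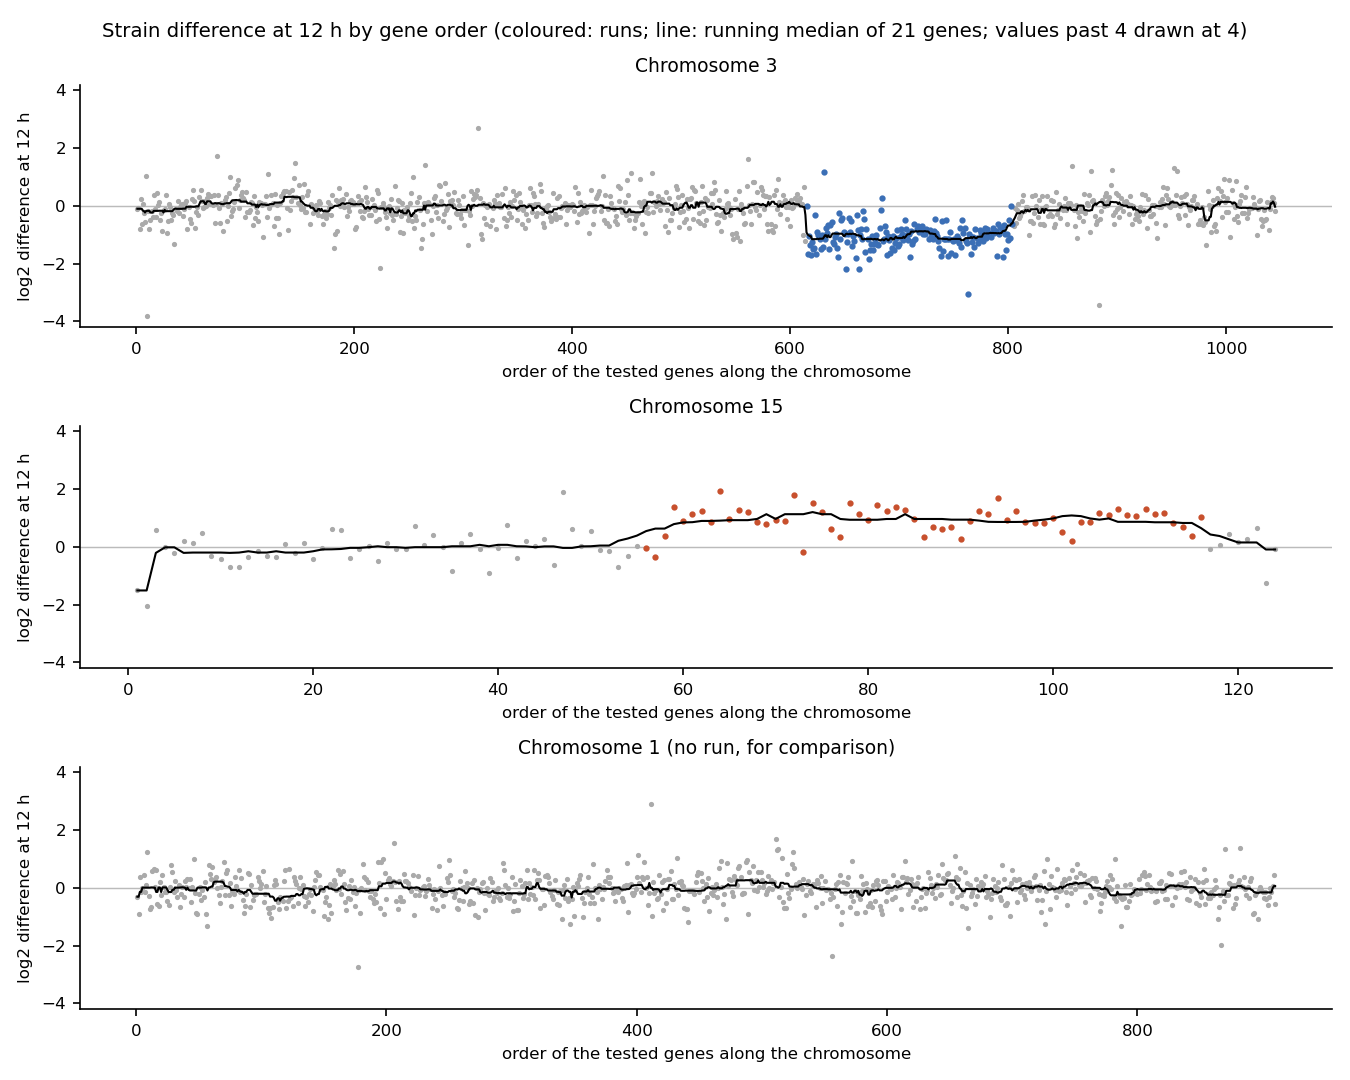
The log2 difference at 12 h (DHC16 minus A31) of each tested gene is plotted by its order along chromosomes 3, 15 and 1, with the running median of 21 genes as a line and the genes of the runs in colour. The 190 genes on chromosome 3 sit around -1.05 and the 61 on chromosome 15 around 0.963, with the neighbours on both sides around 0.

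The widest differences were those of genes without a symbol, which the files do not describe. Cre48.g789400 was listed at 0 in the A31 libraries of 12 h and stood at 124, 168 and 109 in DHC16, at least 51.7-fold higher than the floor of 3 reads per library. Cre39.g786050 stood at 256, 224 and 372 in A31 and had 0 reads in all 6 DHC16 libraries of 0 h and 12 h, so that it was at least 101-fold higher in A31 at 12 h. At 0 h Cre48.g789400 stood at 1.12, 3.05 and 2.11 in A31 and 363, 309 and 354 in DHC16, and Cre39.g786050 stood at 179, 285 and 276 in A31. Cre29.g778950 stood at 877, 1192 and 594 in A31 and 2.94, 5.90 and 5.02 in DHC16, and it was nearly absent from DHC16 at 0 h too, with 4.08, 0 and 2.61. Cre07.g321800 differed from these, since it stood at 1.12, 0 and 0.703 in A31 and 2.04, 7.72 and 0 in DHC16 at 0 h and at 0, 0 and 3.86 and 71.6, 70.8 and 65.3 at 12 h. Across the 12 libraries 2 genes held at most 3 reads in all 6 DHC16 libraries with A31 expressed, and 0 genes the reverse.

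Against the 0 h comparison, in which 2620 genes differed, 1356 higher (9.4%) and 1264 lower (8.76%), 328 genes were higher at both times, 35.7% of those higher at 12 h and 24.2% of those higher at 0 h. Lower at both times were 282, 41.3% and 22.3% of the lower genes of 12 h and 0 h. A further 55 were higher at 12 h and lower at 0 h, and 12 were lower at 12 h and higher at 0 h. Of the genes not called at 0 h, 535 were higher and 389 lower at 12 h, but the change between the times passed for 169 of them. Over all genes the change between the times passed for 502, with 317 more positive at 12 h (2.2%) and 185 more negative (1.28%). The count was 142 without A31 library 7 of 0 h, 333 without A31 library 1 of 0 h, 262 without A31 library 16, 237, 273 and 198 without DHC16 libraries 10, 13 and 16, and 36 with all 17 libraries. Named genes with a more negative difference at 12 h were PHC19 and GAS28, cell wall proteins, FAP212, FTSZ2 and SMC6A. GAS28 stood at 2.24, 6.87 and 3.52 in A31 and 12.3, 21.2 and 13.1 in DHC16 at 0 h and at 8134, 6103 and 6880.4 and 7773, 5228 and 3897 at 12 h, and FTSZ2 at 0, 3.81 and 0 and 8.17, 3.86 and 3.92, then 648, 484 and 634 and 450.5, 297 and 334. At 12 h none of the 5 differed between the strains by limma, with adjusted p of 0.076 to 0.46.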

How the data were processed

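RNA was extracted with TRIzol and made into TruSeq libraries, per the labels' protocols. The tools named in the submitters' processing notes are TopHat 1.3.1, CASAVA 1.8.2, edgeR 3.0.8 and HTSeq 0.5.3p9, without roles. The genome build and the strand setting were not given in these sources. Without strand, reads of overlapping or antisense genes cannot be told apart. The authors deposited normalized counts per gene, a signal equal to whole reads divided by 1 factor per library: 100% of values were whole multiples of 1 read within a tolerance of 0.01, 0.779 to 0.983 normalized counts per read at 12 h. The deposited rapamycin tables gave gene symbols only.

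The members, lists and tests were chosen with earlier results of these data known. The limma test (version 3.58.1, R 4.3.3) took log2(normalized count + 1), which understates changes of low genes, over 12 libraries with 1 mean per strain and time, an intensity trend of the variance and Benjamini-Hochberg adjustment over 14422 genes at 0.05. Because the unit is a normalized count, edgeR 4.0.16 (quasi-likelihood, TMM) and DESeq2 1.42.0 on recovered reads served as alternatives, beside other libraries in the fit, pseudocounts of 0.5 and 5, filters of none and 10 CPM, CPM and quantile scaling, a replicate block and each library left out. Libraries of 1 strain differed beyond sampling noise, with a chi-square per degree of freedom of at least 4.83, and none was merged. The floor of 3 reads covers counting error only.

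Named were the 15 genes with a symbol of largest difference in each direction, called, with no overlap and a higher mean of at least 20, and 2 IDs without a symbol per direction. Up to 6 called genes per list, METE and 5 plastid chaperones, and 5 genes per direction for the change between times were added. MCM4, POLD1, CYCB1, ODA13, FAP251, RAN1, SERRS2, DEG1C, FTSH1, FTSH2, ICL1, MAS1, ATS1, FTSZ1 and MIND1 were chosen after their values were seen. Of the lists' pattern matches, 6 genes of other function were left out. Of 17114 IDs, 12646 matched the reference.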

Additional observations from a re-analysis of the deposited data

Results flagged for a closer look

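The strain difference at 12 h differed from that at 0 h, by limma's test of the change between the times, for 502 genes. The log2 change of the difference (12 h minus 0 h, DHC16 minus A31) is given here for the named genes that passed. The gene without a symbol Cre07.g321800 had 4.41. Flagellar genes were FAP138 with 2.27, FAP43 with 2.10, FAP101 with 2.03, FAP139 with 1.79, RSP3 with 1.37, FAP292 with 1.34, IFT57 with 0.91, FAP232 with 0.87, FAP166 with 0.81 and RSP9 with 0.80. FAP43 and FAP101 were higher at 12 h but lost that call without A31 library 10 or 16 or DHC16 library 16, and FAP43 also without DHC16 library 10.

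The phosphate symporters PTB4 and PTB2 changed by 1.90 and 1.72, the chloroplast small heat shock protein HSP22E by 1.50, and POR, of chlorophyll synthesis, by 0.83. PHC15, a pherophorin, changed by 2.17 and the glycosyl transferase GTR12 by 2.13, and both had been far lower in DHC16 at 0 h. In the other direction SMC6A changed by -1.27, GAS28 by -2.09, FAP212 by -2.47, FTSZ2 by -2.55 and PHC19 by -2.69. Of these, PHC19, FTSZ2 and GAS28 stood below 25 normalized counts in every library of 0 h.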

How the results depend on the processing

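The number of genes that differ at 12 h was 498 with all 17 libraries sharing the spread, 2488 with the 6 libraries of 12 h alone, 2441 under CPM scaling and 2419 in DESeq2, of which 498, 1556, 1004 and 1584 were genes called in the fit reported. Higher genes numbered 246 with all 17 libraries and 322 under CPM. Lower genes numbered 252, 1307 (6 libraries), 2119 (CPM), 1271 (edgeR) and 1268 (DESeq2). At 0 h the count was 1353 with all 17 libraries, 1318 with the 6 of 0 h and 9004 under CPM. For the change between times it was 36, 1262 under CPM and 872 in DESeq2. FAP genes higher numbered 2 and 17, axonemal genes 1 and 6, and plastid ribosomal genes 3 and 3, with all 17 libraries and under CPM, where the median of the last was -0.0171, or 0.308 relative to the median of all genes, which CPM scaling shifted by -0.292. Replication genes lower numbered 0 with all 17 libraries, 35 with 6 libraries, 20 with a pseudocount of 5, 27 under CPM and 34 in both edgeR and DESeq2. The causes were not tested.

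Leaving out 1 library gave ranges of 736 to 1704 genes at 12 h, 415 to 966 higher, 310 to 738 lower, 1303 to 2670 at 0 h, 142 to 697 for the change between times, 26 to 73 FAP, 14 to 37 axonemal, 4 to 8 replication and 3 to 6 plastid ribosomal genes. The labels do not say what the library numbers share, and they were not taken as pairs because not every pair correlated above 0.1: the deviations of same-numbered libraries correlated by 0.151 to 0.222 in the 3 pairs of 0 h and by 0.178, 0.00678 and -0.0302 at 12 h, and 4 of 6 libraries correlated best with their own number. With the number as a replicate block 2174 genes differed at 12 h, 3271 differed at 0 h, 839 changed between the times and 13 plastid ribosomal genes were higher.

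Of the 73 named genes called, 18 kept their call in all 17 alternatives run, 6 kept it in each of the 16 that tested them, being too low for the filter of 10 CPM, and 0 reversed. The 73 leave out MCM4, POLD1, CYCB1, ODA13, FAP251, RAN1 and SERRS2, which were called but chosen after their values were seen. A pseudocount of 0.5 lost 4 calls, a mean of at least 10 CPM lost 2 of 63, and quantile scaling and DESeq2 lost 1 each. Both runs of neighbouring genes were found again with windows of 11 and 41 genes, chosen after the data were seen, with 191 and 195 genes on chromosome 3 and 57 and 61 on chromosome 15. Genes near 1 CPM rest on few reads, so small differences were not detectable there at this depth.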
